A study of Drosophila melanogaster with 4 samples.

Results

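Chromosome arm 3R of Drosophila melanogaster carried 327 of the 1355 peaks (24.1%) in a list of regions where DNA recovered with an antibody against TCF was listed as bound. The peaks were taken by position alone: every listed peak whose sequence name is 3R was included, and the 1 peak on the separate heterochromatic sequence 3RHet was not. The fly TCF protein, Pangolin, is an HMG-box protein that binds DNA at the end of the Wnt pathway. When the ligand Wingless is received, the beta-catenin Armadillo enters the nucleus and joins Pangolin to switch target genes on. Without the signal, Pangolin works with the co-repressor Groucho to keep such genes off. Wingless signalling is known for segment polarity and for the patterning of the gut, muscles and limb primordia of the embryo. Late embryos, as used here, have largely formed organs. Arm 3R is known for carrying both Hox gene complexes, Antennapedia and bithorax, and its coordinates run from the centromere outwards.

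Chromatin immunoprecipitation with sequencing (ChIP-seq) was done on whole embryos of 16 to 24 h, with 2 libraries of TCF ChIP DNA and 2 of input DNA, the chromatin before immunoprecipitation. All 4 libraries came from the strain Y cn bw sp, and no group differs in genotype or age. The labels give it y[1] and oc[R3.2] on the first chromosome listed. They add the chemoreceptor alleles Gr22b[1] and Gr22d[1], the eye-colour alleles cn[1] and bw[1], and also sp[1] and CG33964[R4.2]. The last alleles listed are LysC[1] and lab[R4.2], followed by MstProx[1], GstD5[1] and Rh6[1]. The antiserum was a crude rabbit polyclonal serum against the N-terminal part of Pangolin, and a whole embryo mixes all of its tissues.

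The data are 1 list with a start, an end and a score per peak, in FlyBase release 5 coordinates. The score is the authors' own value for each peak. Its scale is not given in the sources used here, so it is read only as an order within the list. Strong and weak below mean high and low in this score. The list holds no value per library, so no peak has a replicate error, and the depth of the libraries is unknown. No genome or gene annotation of release 5 was used here, so peaks are named by position and no gene or sequence is assigned to them.

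Most of the 3R peaks had low scores within the range of deposited values, and a small number had high ones. The lowest score was 6.48, the median was 13.6 with quartiles at 10.3 and 24.6, and the highest was 458. In all, 232 peaks (70.9%) scored under 20, 38 scored 50 or more, 20 scored 100 or more and 6 scored 200 or more. The 20th peak scored 101 and the 21st scored 83.6. Scores repeated often, since the 327 peaks held 167 distinct values and 213 peaks (65.1%) had the score of another 3R peak. The value 11.59 occurred 15 times.

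**Figure D1:**
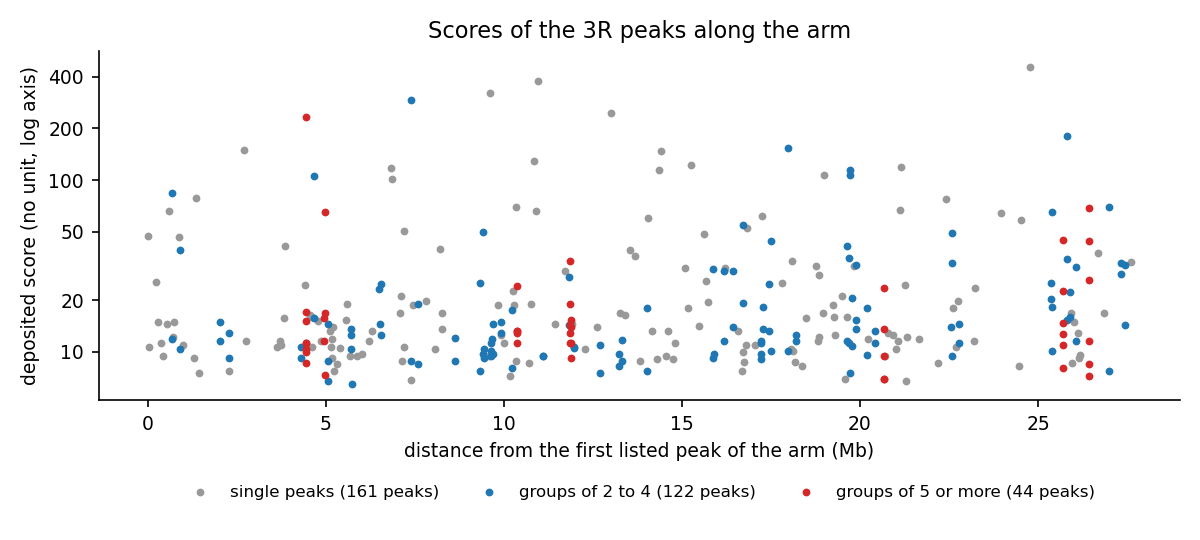
Each point is 1 of the 327 peaks on 3R, with its distance from the first listed peak of the arm in Mb on the x axis and its deposited score on a log y axis. Colours mark single peaks (161), peaks in groups of 2 to 4 and peaks in groups of 5 or more (44). The 6 peaks scoring 200 or more are spread along the arm, and 1 of them lies in a group of 5 or more.

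The highest peak of the arm, 3R:24982898-24984424, scored 458 over 1527 bp and stood alone. Its nearest neighbour lay 246 kb away by midpoints and scored 58.7. The second, 3R:11168468-11170180, scored 378 over 1713 bp, and its nearest neighbour lay 65.4 kb away. That neighbour, 3R:11103506-11104438, scored 66.4. It lay between the second peak and another of the 20 highest, 3R:11054673-11055914, which scored 130.0. These 3 therefore followed one another with no weak peak listed between them.

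The third, 3R:9809092-9809799, reached 323 over only 708 bp. The fourth, 3R:7603882-7605213, scored 294 and was paired with a peak of score 8.86 whose midpoint was 1.05 kb away. The fifth, 3R:13219904-13221040, scored 247 and had its nearest neighbour 224 kb away. The sixth, 3R:4637078-4638013, scored 233 and was the only one of the 20 highest inside a group of 5 or more peaks. So among the 6 peaks above 200, isolated and crowded sites were both present.

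Below these, 3R:26017051-26017639 scored 181 and was the narrowest of the 20 at 589 bp. The peak 3R:18194168-18194945 scored 153, 3R:2914736-2917373 scored 149 and 3R:14620959-14621880 scored 147. A near neighbour of the last, 3R:14566838-14568983, scored 114 at 53.5 kb, and each was the other's nearest peak. The same held for 3R:7026171-7027131 with 117 and 3R:7052028-7052964 with 101, which lay 25.8 kb apart.

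The remaining peaks of the 20 were 3R:15452976-15454265 with 123, 3R:21341290-21341932 with 119, 3R:19924522-19927125 with 114, 3R:19182348-19183933 and 3R:19934380-19936396 with 108 each, and 3R:4880468-4881597 with 106. Of the 20 highest peaks, 13 were single at a joining gap of 10 kb, against 161 of all 327 (49.2%). The distance to the nearest peak had a median of 25.8 kb among the 20 and of 9.27 kb among all 327. The nearest neighbour of a top peak could be weak or strong. Its score, taken once for each of the 20, had a median of 17.5 and ranged from 7.55 to 147. For 9 of the 20 the nearest neighbour was in the top 25% of the list, which starts at a score of 26.7. Neither this count nor the median neighbour score was computed over all 327 peaks. Whether they are high or low for the arm is therefore not known. Some neighbours were shared between top peaks, and some were themselves among the 20. Over wider sets the contrast in single peaks and near neighbours was smaller. Of the 74 peaks on 3R in the top 25% of the list, 41 were single. In score quartiles of the arm from lowest to highest, 54.9%, 51.2%, 49.4% and 45.1% of peaks had a neighbour within 10 kb by midpoints. These are descriptions of the ranked list, with no test.

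Peaks occurred in every 1 Mb window of the arm, but unevenly. The 28 windows held from 2 to 24 peaks, with a median of 11. The fullest was the window from 5 to 6 Mb, with 24 peaks (exact Poisson 95% interval 15.4 to 35.7). It was followed by the windows from 19 to 20 Mb and from 26 to 27 Mb with 20 each, from 4 to 5 Mb and from 10 to 11 Mb with 19 each, and from 12 to 13 Mb with 18. The emptiest were 23 to 24 Mb with 2 peaks (interval 0.242 to 7.22) and 3 to 4 Mb with 3 (interval 0.619 to 8.77). These intervals cover counting error only and treat each peak as independent, which grouped peaks are not.

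Windows with many peaks were not always those with strong peaks. Over the whole arm, 74 of 327 peaks (22.6%) were in the top 25% of the list. From 5 to 6 Mb this was 1 of 24, and the window's median score was 11.6. From 4 to 5 Mb it was 3 of 19, with a highest score of 233. From 10 to 11 Mb this was 1 of 19, and from 12 to 13 Mb it was 2 of 18, with a highest score of 33.9. In contrast, 4 of 7 peaks from 11 to 12 Mb were in the top 25%, at a median score of 29.7. From 24 to 25 Mb there were 4 peaks, of which 3 were in the top 25%, and from 27 Mb to the last peak there were 8, of which 5 were. The windows with most peaks of the top 25%, 6 each, were 19 to 20 Mb and 26 to 27 Mb, which also had 20 peaks each. None was in the top 25% in the 3 windows from 3 to 4, 6 to 7 and 23 to 24 Mb. Each of these shares rests on few peaks, and none was tested.

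In 5 Mb windows the density ran from 8.40 peaks per Mb (interval 6.05 to 11.4) between 20 and 25 Mb to 13.9 (9.89 to 19.0) beyond 25 Mb, a window of 2.80 Mb that the last peak ends. Those 2 intervals overlap, which does not show that the densities are alike. The 2 windows were the lowest and the highest in density and were not compared by a test. The outermost window also had the largest share of peaks with a neighbour within 10 kb, 30 of 39 (76.9%), against 41.7% to 51.5% in the other 5. Counted as groups, its density was 6.78 per Mb, within the range of 6.00 to 10.0 groups per Mb of the other windows. In 1 Mb windows, all 11 peaks from 25 to 26 Mb had a neighbour within 10 kb, and they formed 3 groups. The counts were 13 of 20 from 26 to 27 Mb and 6 of 8 beyond 27 Mb. Among the windows before 25 Mb, the share ran from 0 of 8 (15 to 16 Mb, for one) to 12 of 14 (9 to 10 Mb). Close listing was therefore uneven within this end of the arm and also occurred elsewhere. These shares were not tested.

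Long stretches without a peak broke up the arm. The longest ran from 2956403 to 3839362, 883 kb, between peaks scoring 11.6 and 10.6. The next ran from 23436065 to 24153847, 718 kb, and from 8840200 to 9539678, 699 kb. The fourth, of 580 kb, lay from 24984425 to 25564087, directly beyond the highest peak of the arm. The fifth, of 575 kb, ran from 1648014 to 2223333. Between 23 and 25 Mb only 6 peaks were listed, yet these included the highest score of the whole list and 3R:24153848-24155089 with 64.6. Whether input signal or alignability was low or high in these stretches was not tested.

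Distances between adjacent peaks ranged from 46 bp to 883 kb, with a median of 35.6 kb. Of the 326 distances, 48 (14.7%) were under 1 kb, 57 (17.5%) were from 1 to 10 kb, 135 (41.4%) were from 10 to 100 kb and 86 (26.4%) were longer. No 2 peaks overlapped. Peaks less than or exactly 10 kb apart were joined, which gave 222 groups. Of these, 161 were single peaks, 44 were pairs, 6 had 3 peaks, 4 had 4 and 7 had 5 or more. With a joining gap of 5 kb instead, 4 groups had 5 or more, and with 20 kb there were 9.

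**Figure D2:**
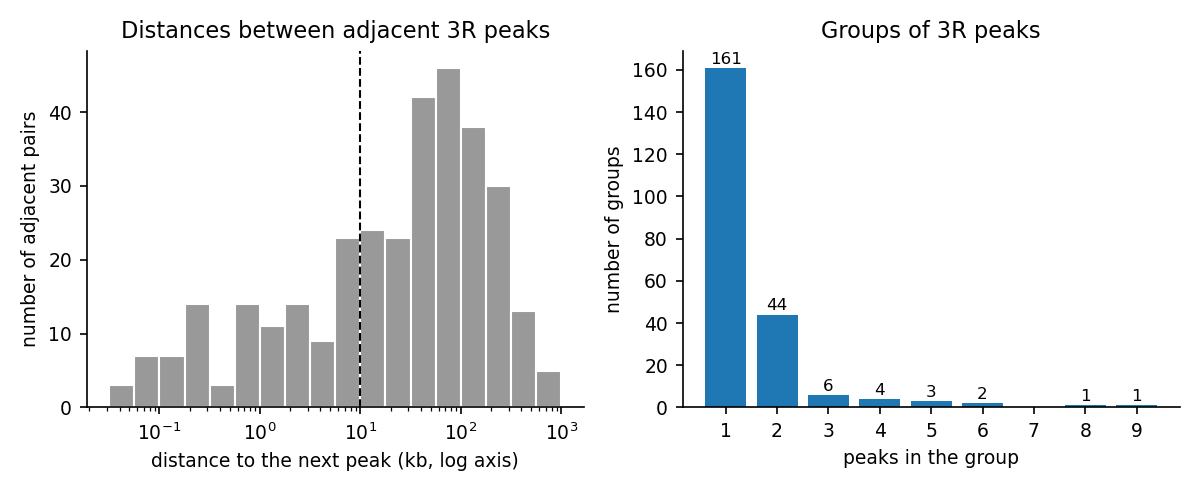
The left panel counts the 326 distances between adjacent 3R peaks in kb on a log axis, with a dashed line at the 10 kb used to join peaks. The right panel counts groups by the number of peaks they hold. Most distances lie above the line, and 161 of the 222 groups are single peaks.

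The 7 largest groups, with 44 listed peaks, came in differing forms. Some of their members lay under 1 kb from the next, so the entries cannot be counted as separate binding sites. A strong peak with weak ones around it made up the group of 8 from 4633747 to 4648595. Its strong peak, 3R:4637078-4638013, scored 233. The others, in order along the arm, scored 9.93, 15.0 and 11.3 before it and 17.1, 11.3, 8.59 and 10.3 after it. The gap from the strong peak to the next was 72 bp, and the last peak stood apart from the rest.

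The group of 5 from 5164142 to 5177383 had a similar form, with a lower highest score. Its middle peak, 3R:5166139-5166652, scored 65.2, and the others scored 11.6, 15.7, 7.27 and 16.8. In both groups the highest peak was the 1 member in the top 25% of the list.

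In 3 other groups no score was above 33.9. The group of 9 from 12050613 to 12087854 was the longest on the arm at 37.2 kb. Its scores in order were 33.9, 11.3, 19.0, 14.2, 12.9, 15.3, 13.9, 9.16 and 11.2, so the first peak was highest and 1 of the 9 was in the top 25% of the list. The group of 5 from 10560810 to 10581159 was also drawn out, over 20.4 kb, with scores of 24.2, 13.2, 13.2, 12.9 and 11.3. The group of 5 from 20876221 to 20881583 was the shortest at 5.36 kb. It opened with 3R:20876221-20877751, which scored 23.5 over 1531 bp, and went on with 13.6, 6.98, 6.98 and 9.44. None of the peaks of these last 2 groups was in the top 25%.

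Near the outer end of the arm lay 2 groups of 6, each with more than one wide peak. From 25910114 to 25918839 the scores were 22.6, 14.7, 12.7, 11.0, 8.03 and 44.6, with the first at 1001 bp and the last at 1194 bp wide while those between were at most 437 bp wide. From 26622058 to 26630093 they were 8.46, 68.9, 11.6, 7.24, 44.0 and 26.1. Here the peaks of 68.9, 44.0 and 26.1 were 1122, 991 and 630 bp wide. In 4 of the 7 groups the highest peak was the first or the last of its group.

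**Figure D3:**
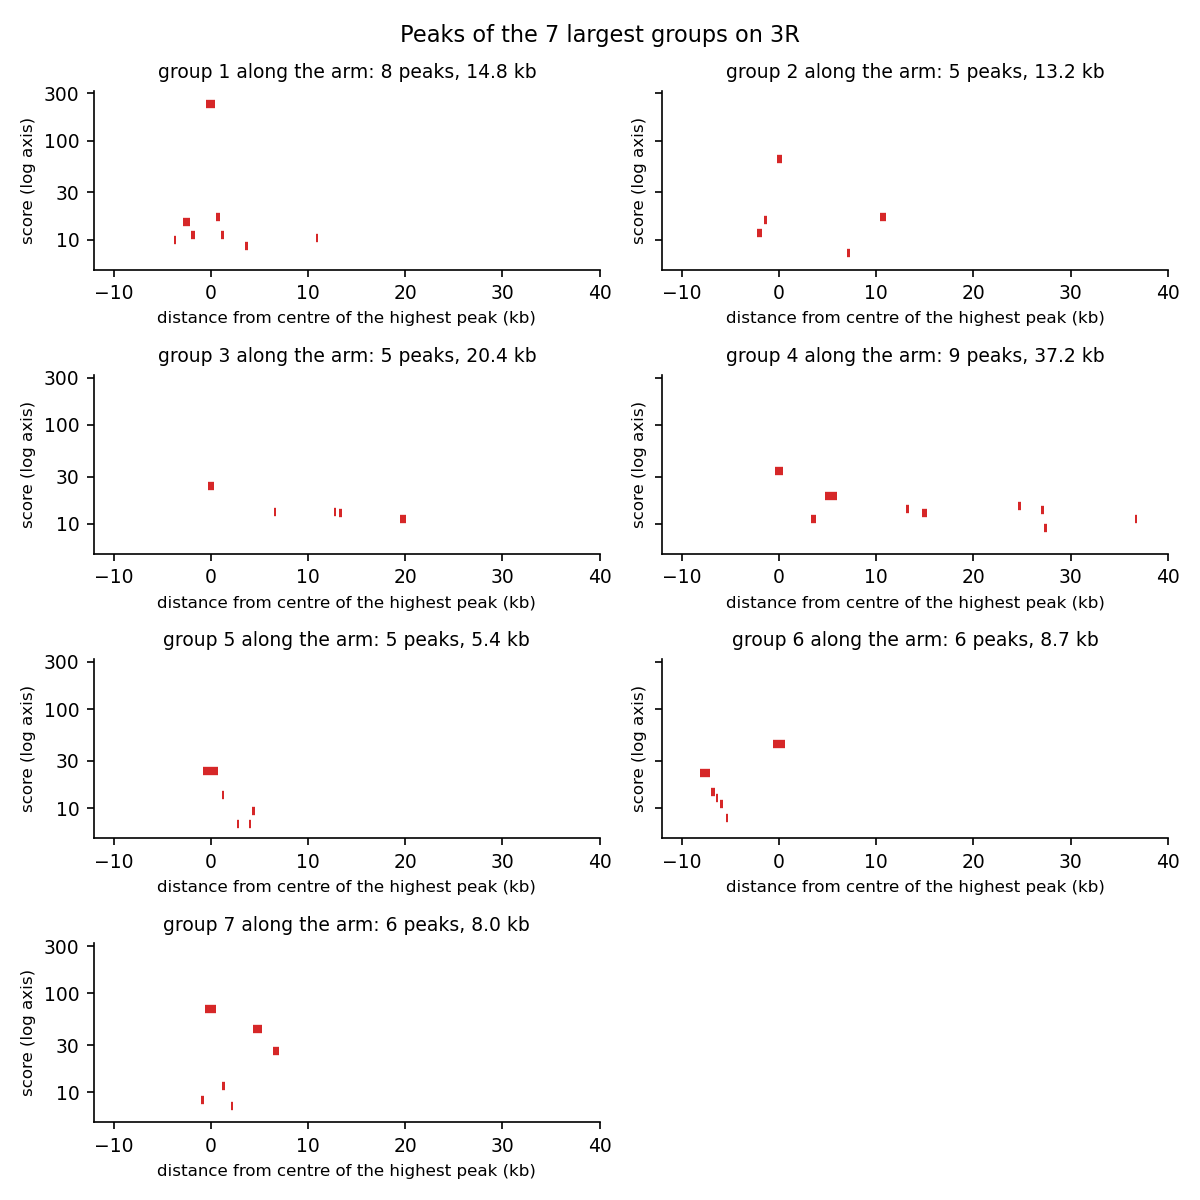
Each panel is 1 of the 7 groups of 5 or more peaks on 3R, in order along the arm. Each bar is a peak, drawn to its width in kb at its score (log axis), against the distance in kb from the centre of the group's highest peak. The first panel shows the peak of score 233 above 7 peaks of at most 17.1, and the fourth shows 9 peaks over 37.2 kb with scores of at most 33.9.

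Peaks in larger groups did not score higher as single entries. The median score was 14.6 for the 161 single peaks, 13.2 for the 88 in pairs, 12.2 for the 34 in groups of 3 or 4 and 13.1 for the 44 in groups of 5 or more. The share in the top 25% of the list was 25.5%, 20.5%, 26.5% and 13.6% in the same order. The highest score per group, in contrast, had a median of 14.6 for single peaks, 22.7 for pairs, 31.1 for groups of 3 or 4 and 44.6 for groups of 5 or more. A larger group has more entries from which the highest is taken, and neither series was tested.

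Width and score rose together across the 327 peaks (Spearman's rho 0.77). This is a description across peaks of the same libraries. The median width was 364 bp, with quartiles at 255 and 648 bp, and 10 peaks had the smallest width of 201 bp. The 82 peaks with the lowest scores had a median width of 247 bp and reached 490 bp at most. The 82 with the highest scores had a median of 897 bp, with quartiles at 628.5 and 1242 bp and a smallest width of 394 bp. All 20 of the highest peaks were wider than the list's median of 379 bp. Together the 3R peaks covered 173 kb, or 0.626% of the 27.6 Mb between the first and the last.

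Of the 5 widest peaks, 4 were among the 20 highest scores and the widest was not. The widest peak on 3R, which is also the widest of the list, was 3R:19901799-19904499, at 2701 bp with a score of only 35.2. The other 4 peaks over 2000 bp were 3R:2914736-2917373 (2638 bp), 3R:19924522-19927125 (2604 bp), 3R:14566838-14568983 (2146 bp) and 3R:19934380-19936396 (2017 bp), which scored from 108 to 149. Of the 5, 3 lay within 34.6 kb, from 19901799 to 19936396, a stretch that was singled out after the values were seen. It held 5 peaks that covered 22.8% of its length. The 2 narrow ones, 3R:19904679-19905019 and 3R:19933243-19933479, scored 11.3 and 7.55.

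At the other end, the lowest score was that of 3R:5925323-5925523, with 6.48 over 201 bp, the last of a group of 4. The next were 3R:21504970-21505198 with 6.73, 3R:5257065-5257305 with 6.78 and 3R:7588275-7588507 with 6.85. The last of these lay 16.2 kb from the peak of score 294. Then 3 peaks tied at 6.98, and 2 of them were neighbours in the compact group that starts at 20876221. The third, 3R:19787570-19787819, stood alone. Peaks at the bottom of the list were therefore found both alone and inside groups.

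**Figure D4:**
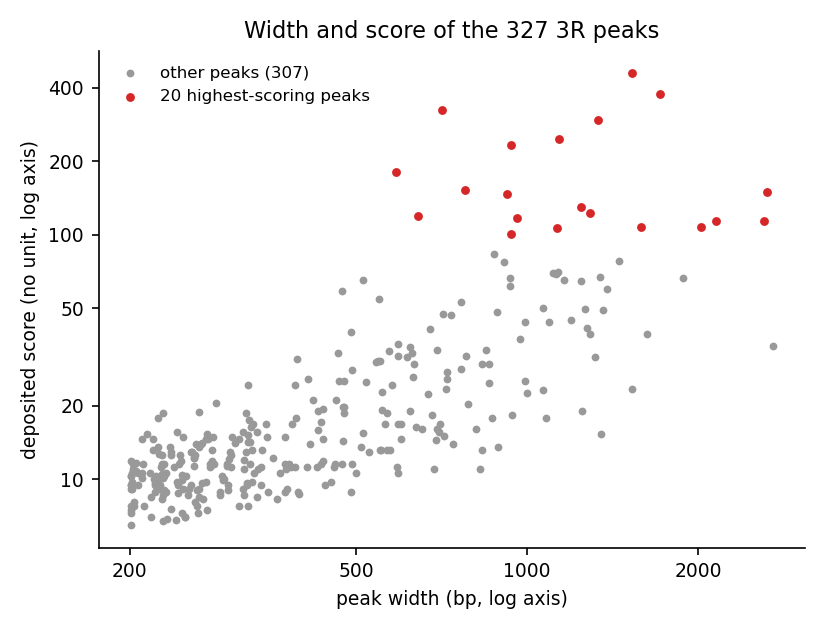
Each point is 1 of the 327 peaks on 3R, with its width in bp and its deposited score, both on log axes. The 20 highest-scoring peaks, in red, are 589 to 2638 bp wide, and the widest peak of all, at 2701 bp, lies below them at a score of 35.2.

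Arms 2L and 3L, the large autosomal arms compared with 3R, did not differ from it detectably in 4 measures over all listed peaks. The density of peaks was 11.8 per Mb on 3R (exact Poisson 95% interval 10.6 to 13.2), 13.5 on 2L (12.1 to 15.2) and 13.4 on 3L (12.0 to 15.0). The ratio of 3R to 2L was 0.874 (95% interval 0.745 to 1.03, exact binomial test, two-sided, adjusted p = 0.12). The ratio to 3L was 0.883 (0.753 to 1.03, exact binomial test, adjusted p = 0.12). Both intervals hold 1. With only the top 25% of the list, 3R had 74 peaks and 2L had 86, a ratio of 0.690 (0.499 to 0.953), and this difference was called (exact binomial test, adjusted p = 0.042). The ratio to 3L, with 62 such peaks, was 0.999 (0.703 to 1.42). In the top 50% the ratio to 2L was 0.835 (0.662 to 1.05, exact binomial test, adjusted p = 0.24). The call against 2L was the only 1 among 30 alternative values, and p-values were adjusted only for the 2 arms within each setting. It is therefore weak evidence of a difference.

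The share of peaks with another peak within 10 kb was 164 of 327 on 3R (50.2%, exact Clopper-Pearson 95% interval 44.6% to 55.7%), 51.3% on 2L and 52.3% on 3L. The odds ratios were 0.954 (0.689 to 1.32) against 2L and 0.919 (0.665 to 1.27) against 3L (Fisher's exact test, two-sided, adjusted p = 0.81 for each). With peaks under 1 kb apart merged, the shares fell to 93 of 279 on 3R (33.3%), 30.7% on 2L and 37.5% on 3L. The level therefore depends on how finely regions were split in the list. The share of peaks in the top 25% of the list was 22.6% on 3R (18.2% to 27.6%), 28.7% on 2L and 20.0% on 3L. The odds ratio was 0.728 (0.499 to 1.06) against 2L (Fisher's exact test, adjusted p = 0.20) and 1.17 (0.786 to 1.74) against 3L (adjusted p = 0.44). The share wider than the list's median was 48.0% on 3R, 49.7% on 2L and 47.4% on 3L, with odds ratios of 0.936 (0.676 to 1.30) and 1.02 (0.741 to 1.41; Fisher's exact test, adjusted p = 0.94 for each).

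None of these 8 comparisons had an unadjusted p under 0.05 (exact binomial or Fisher's exact test). Peaks within groups are not independent of one another, so the intervals are too narrow. As a description, 3R had 44 peaks (13.5%) in 7 groups of 5 or more, 2L had 21 (7.00%) in 3 and 3L had 34 (11.0%) in 5. Scores of 100 or more were reached by 20 of 327 peaks on 3R, 20 of 300 on 2L and 16 of 310 on 3L.

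**Figure D5:**
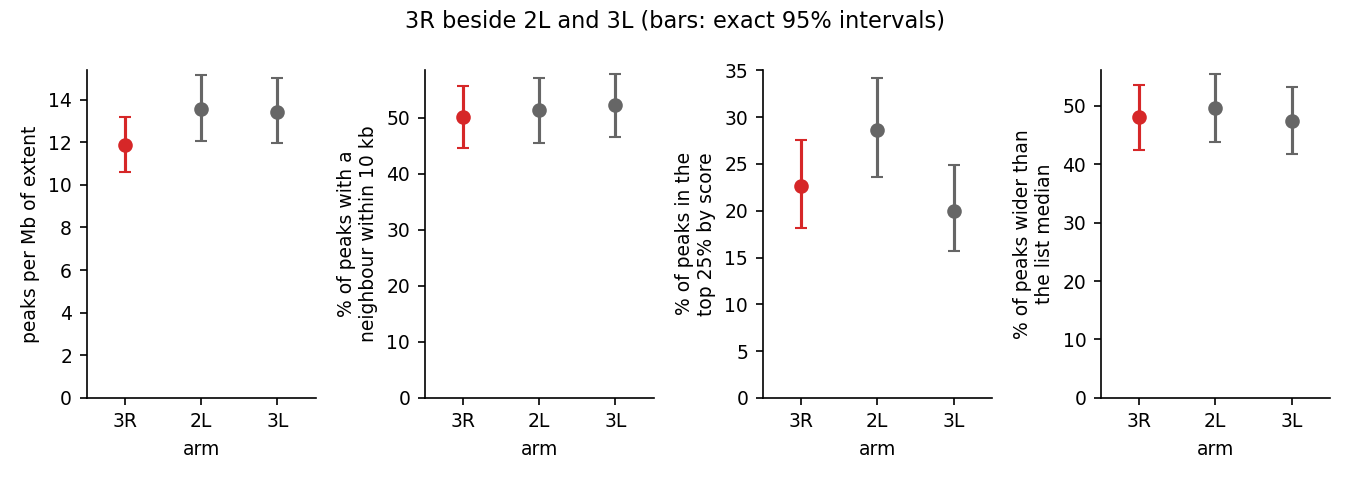
The 4 panels show, for arms 3R, 2L and 3L, peaks per Mb between the first and last peak and the percentages of peaks with a neighbour within 10 kb, in the top 25% by score and wider than the list's median. Points are the values and bars the exact 95% intervals, and in each panel the interval of 3R overlaps those of 2L and 3L.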

How the data were processed

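The submitters' processing notes name CASAVA (versions 1.7.0.2 and 1.7.0.3), BWA, MACS2 and the build BDGP5 without saying what each did. The deposited list gives FlyBase release 5 as its build and MACS as its source, per the file headers and its source column. The score per peak is the authors' deposited value, and its scale, the calling threshold and the use of replicates and input are not stated in any source used here. Per the labels' protocols, eggs were laid over 8 h and embryos fixed in 1.8% formaldehyde for 15 min.

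Widths (end minus start plus 1), midpoints, distances, groups (gaps of up to 10 kb), windows and ranks were computed with Python 3.11.15, numpy 2.4.6, pandas 2.3.3 and scipy 1.17.1, and figures with matplotlib 3.10.9. Densities use the extent from an arm's first to its last peak. Densities were compared by exact conditional binomial tests and shares by Fisher's exact test, and p-values were adjusted by Benjamini-Hochberg for 2 arms per measure. The tests and the grouping were tested on simulated data. Intervals are exact at 95% and cover counting error of peaks only. Labels do not say whether replicates came from separate collections.

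The arm and the measures were chosen with earlier results of these data known. Peaks were named by rule: the 20 highest scores, groups of 5 or more, the 5 longest stretches without a peak, the 5 widest and the 5 lowest-scoring peaks; the other peaks, windows and stretches named were chosen after their values were seen. Motifs and genes were not analysed here, since the gene annotation given is for release 6 and positions were not converted.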

Additional observations from a re-analysis of the deposited data

How the results depend on the processing

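Of 30 alternative values for the 8 comparisons of 3R with 2L and 3L, 23 stayed on the same side of 1 and of the threshold. Taking the top 25% of the list made the density ratio to 2L 0.690, newly called. The other 6 changed side of 1, and none was called (Fisher's exact test). For the share with a neighbour, the odds ratio against 2L was 1.01 in the top 50% and 1.13 with peaks under 1 kb apart merged, and against 3L it was 1.45 in the top 25%. The odds ratio for high scores against 2L was 1.04 at the top 10%. That for width was 1.00 against 2L in the top 50%, and 0.968 against 3L with groups counted once. For width in the top 25% no odds ratio could be had, since all 74 3R peaks were wider than the median. Joining at gaps of up to 5 kb left 4 groups of 5 or more peaks, in place of 7, and up to 20 kb gave 9, with a largest group of 12 in place of 9 and 194 groups in all in place of 222. Spearman's rho of score and width fell to 0.69 for the top 50% of the list and to 0.49 for its top 25%. The top 50% held 154 of the 3R peaks and the top 25% held 74, each with a narrower range of scores than all 327. The causes of these changes were not tested. No paired analysis was possible because peaks carry no values for single libraries, so no replicate could be left out either. Depth is unknown, so weak sites missing from the list cannot be told from unbound ones.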
